A study of Mus musculus with 17 samples.

Results

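Scd1 and Scd2 encode stearoyl-CoA desaturases, and both were measured in skeletal muscle of 17 male mice on whole-transcript microarrays (Affymetrix Mouse Gene ST), with 1 array per mouse. They are 2 of the 19938 genes of the series, each read by 1 probe set that carries no other gene symbol (10467979 for Scd1 and 10463355 for Scd2). Both were selected on their group means in these same arrays. Their differences between groups are therefore given as a description with a standard error and no test. All mice were wildtype C57BL/6N males of 5 to 6 months. The STZ,BEZ group (n = 5) had received 65 mg/kg streptozotocin, which destroys pancreatic beta cells, on 5 days at an age of 10 to 16 weeks. From 2 weeks later these mice ate chow with the fibrate bezafibrate for 8 weeks, at 0.25% or 0.5%, and the labels do not tie a strength to a mouse. The STZ,SD group (n = 5) had received the same injections and ate standard chow. The Con,SD group (n = 7) had been injected with buffer alone and ate standard chow. The streptozotocin mouse is a model of insulin deficiency, and the sources name no particular muscle.

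A stearoyl-CoA desaturase sits in the membrane of the endoplasmic reticulum and puts a double bond into palmitoyl-CoA and stearoyl-CoA, which yields palmitoleate and oleate. These monounsaturated fatty acids are the preferred substrates for triglycerides, phospholipids, cholesterol esters and wax esters. In mice Scd1 is the main form of adipose tissue and liver, and Scd2 is best known from brain and from newborn tissues. Insulin, the lipogenic transcription factor SREBP-1c and the oxysterol receptors (LXR) are textbook inducers of Scd1 in liver.

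Expression is given on the log2 scale, as summarised by the authors with robust multi-array averaging (RMA), and precision is limited by the number of arrays. Replicate arrays correlated with r between 0.993 and 0.995 in STZ,BEZ, between 0.988 and 0.996 in STZ,SD, and between 0.959 and 0.995 in Con,SD (0.987 to 0.995 without Con,SD array 1). The mean level of 12 skeletal muscle markers lay between 12.84 and 13.01 in STZ,BEZ, 12.48 and 13.07 in STZ,SD, and 12.53 and 13.03 in Con,SD. Con,SD array 1 was highest in 13 hepatocyte markers, whose mean level was 11.7 there and 7.41 to 9.76 on the other control arrays. The check for single mice far from their group, given below, did not flag this level. Differences of Scd1 and Scd2 from the controls are therefore also given without this array. The same holds for some, not all, of the other lipid genes and lists whose calls or values it changed.

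Scd1 was low in the diabetic mice on standard chow and near the control level in the diabetic mice on bezafibrate. The 5 STZ,BEZ mice had Scd1 values of 12.65, 12.63, 12.29, 12.05 and 12.08. The 5 STZ,SD mice had 9.58, 9.71, 8.82, 11.49 and 10.17. The 7 Con,SD mice had 12.91, 12.99, 12.19, 12.31, 12.56, 13.03 and 12.67. Every STZ,SD value was below every value of the other groups, while STZ,BEZ and Con,SD overlapped. For this and the later genes, the share of all genes whose groups lie apart in this way is not given. The group means were 12.34 ± 0.289 in STZ,BEZ (SD, n = 5), 9.95 ± 0.987 in STZ,SD (SD, n = 5) and 12.67 ± 0.331 in Con,SD (SD, n = 7). STZ,BEZ exceeded STZ,SD by 2.39 ± 0.33 on the log2 scale (SE), or 5.24-fold, with a gap of 0.562 between the nearest mice. The difference of STZ,SD from Con,SD was -2.71 ± 0.31, or 6.55-fold lower, with a gap of 0.699 between the nearest mice. The difference of STZ,BEZ from Con,SD was -0.32 ± 0.31. These standard errors rest on a spread shared by all groups, whereas the SD of Scd1 was widest in STZ,SD. For STZ,BEZ against Con,SD the standard error is thus wider than these groups alone would give. For the comparisons with STZ,SD it is narrower. Without Con,SD array 1 the differences from the controls were -2.67 for STZ,SD and -0.28 for STZ,BEZ. In bulk muscle, fewer cells of a type that express a gene and less RNA of it per cell cannot be told apart.

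Scd2 followed the same order of STZ,SD against the other groups, with a smaller span. Its values were 10.87, 10.62, 10.64, 10.32 and 9.90 in STZ,BEZ. They were 8.71, 8.30, 8.05, 9.38 and 8.69 in STZ,SD. They were 9.66, 10.15, 10.24, 9.65, 9.86, 10.29 and 10.01 in Con,SD. Again no STZ,SD mouse reached the lowest value of either other group. In Scd2, however, 4 of the 5 STZ,BEZ mice lay above the highest control, and STZ,BEZ array 5 lay within the control range. Scd2 averaged 10.47 ± 0.372 in STZ,BEZ (SD, n = 5), 8.63 ± 0.506 in STZ,SD (SD, n = 5) and 9.98 ± 0.266 in Con,SD (SD, n = 7). STZ,BEZ exceeded STZ,SD by 1.84 ± 0.21 on the log2 scale (SE), or 3.59-fold. STZ,SD differed from Con,SD by -1.35 ± 0.20, or 2.55-fold lower. STZ,BEZ differed from Con,SD by 0.49 ± 0.20, or 1.41-fold higher. Without Con,SD array 1 the values against the controls were -1.41 for STZ,SD and 0.44 for STZ,BEZ. The comparisons of STZ,BEZ and of Con,SD with STZ,SD share the STZ,SD mice, so that the low STZ,SD values enter both.

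**Figure D1:**
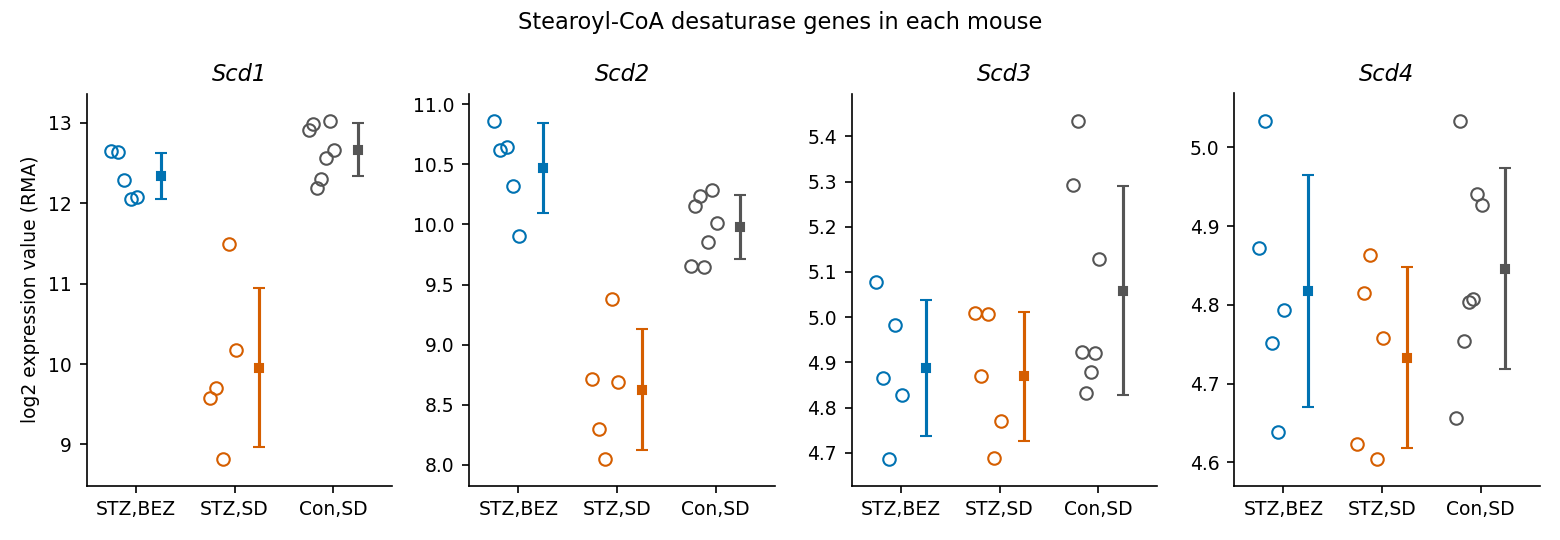
Log2 expression values of the 4 stearoyl-CoA desaturase genes, with 1 open circle per mouse and the group mean ± SD as a square, for STZ,BEZ (n = 5), STZ,SD (n = 5) and Con,SD (n = 7). Each panel has its own vertical axis. In Scd1 and Scd2 all STZ,SD mice lie below all other mice, and in Scd3 and Scd4 the 3 groups overlap within a range of less than 1 log2 unit.

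By size of the difference among 19938 genes, Scd1 came first both in STZ,BEZ against STZ,SD and in STZ,SD against Con,SD. In STZ,BEZ against STZ,SD, Cyp4a14, a fatty acid hydroxylase and known PPAR target, stood between Scd1 and Scd2 with 1.91 ± 0.40 (limma, adjusted p = 0.298). Scd2 was the third and Cyp4a31 followed with 1.46 (adjusted p = 0.778). In STZ,SD against Con,SD the gene after Scd1 was the small nucleolar RNA Snord47 with 2.14, and Scd2 took place 41, between C7 (-1.35) and Mettl21c (-1.34). In STZ,BEZ against Con,SD, Scd1 took place 2042, between Slc43a3 and Setd5, and Scd2 place 709, between Ndufs4 and Irf2bp2. Both desaturases thus ranked far lower by size in the comparison without the STZ,SD mice.

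The mice of a group also differed from each other in these genes. Within STZ,SD the Scd1 values spanned 2.67 log2 units, with array 4 the highest (11.49) and array 3 the lowest (8.82). Only 22 genes (0.11% of all) had a larger SD than Scd1 in that group, where the median SD of all genes was 0.121. The share of genes with a larger SD than Scd1 was 2.39% in STZ,BEZ and 6.48% in Con,SD. Scd2 had its highest and lowest STZ,SD values on the same arrays 4 and 3. For Scd2 the shares were 1.06% in STZ,BEZ, 1.28% in STZ,SD and 10.7% in Con,SD. Without STZ,SD array 4 the Scd1 differences were 2.77 for STZ,BEZ against STZ,SD and -3.10 for STZ,SD against Con,SD.

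Scd3 and Scd4, the other stearoyl-CoA desaturases of the mouse, did not pass the test in any of the 3 comparisons. Genes were called with limma at a Benjamini-Hochberg adjusted p under 0.1 over all 19938 genes. Scd3 lay between 4.69 and 5.08 in STZ,BEZ, 4.69 and 5.01 in STZ,SD, and 4.83 and 5.43 in Con,SD. Scd4 lay between 4.64 and 5.03 in STZ,BEZ, 4.60 and 4.86 in STZ,SD, and 4.66 and 5.03 in Con,SD. In both genes the 3 groups overlapped. All these values lay below the median of all probe sets, which ran from 6.22 to 6.32 over the arrays. A difference at such a low level could be missed. STZ,BEZ minus STZ,SD was 0.02 ± 0.11 for Scd3 (limma, adjusted p = 0.999) and 0.08 ± 0.08 for Scd4 (limma, adjusted p = 0.985). STZ,SD minus Con,SD was -0.19 ± 0.10 for Scd3 (limma, adjusted p = 0.216) and -0.11 ± 0.08 for Scd4 (limma, adjusted p = 0.325).

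The 4 Scd genes lie side by side on chromosome 19 in the RefSeq annotation of GRCm38.p6, in the order Scd3, Scd2, Scd4, Scd1. The genes on the Scd3 side were Cwf19l1, Bloc1s2 and Pkd2l1, and those on the Scd1 side were Wnt8b, Sec31b, Ndufb8 and Hif1an. None of these 7 neighbours, Scd3 or Scd4 was called in STZ,BEZ against STZ,SD, and their differences lay between -0.04 (Pkd2l1) and 0.22 (Ndufb8). In STZ,SD against Con,SD, Sec31b, a coat protein of vesicles leaving the endoplasmic reticulum, was called with 0.30 ± 0.07 (limma, adjusted p = 0.00578), opposite in sign to both desaturases. Scd4, which lies between Scd2 and Scd1, had differences far smaller than those of either neighbour, at a level below the median of every array. Sec31b was also called in STZ,BEZ against Con,SD, with 0.34 ± 0.07 (limma, adjusted p = 0.00312), and so was Ndufb8, with 0.19 ± 0.07 (limma, adjusted p = 0.0808). Without Con,SD array 1, Ndufb8 was at 0.18 and missed the threshold (limma, adjusted p = 0.108). Of all genes, 0.0201% were called higher and 0% lower in STZ,BEZ against STZ,SD. The shares were 13.9% and 11.9% in STZ,SD against Con,SD, and 13.1% and 8.45% in STZ,BEZ against Con,SD. Calls in so few neighbours are thus not read as a trait of the cluster.

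**Figure D2:**
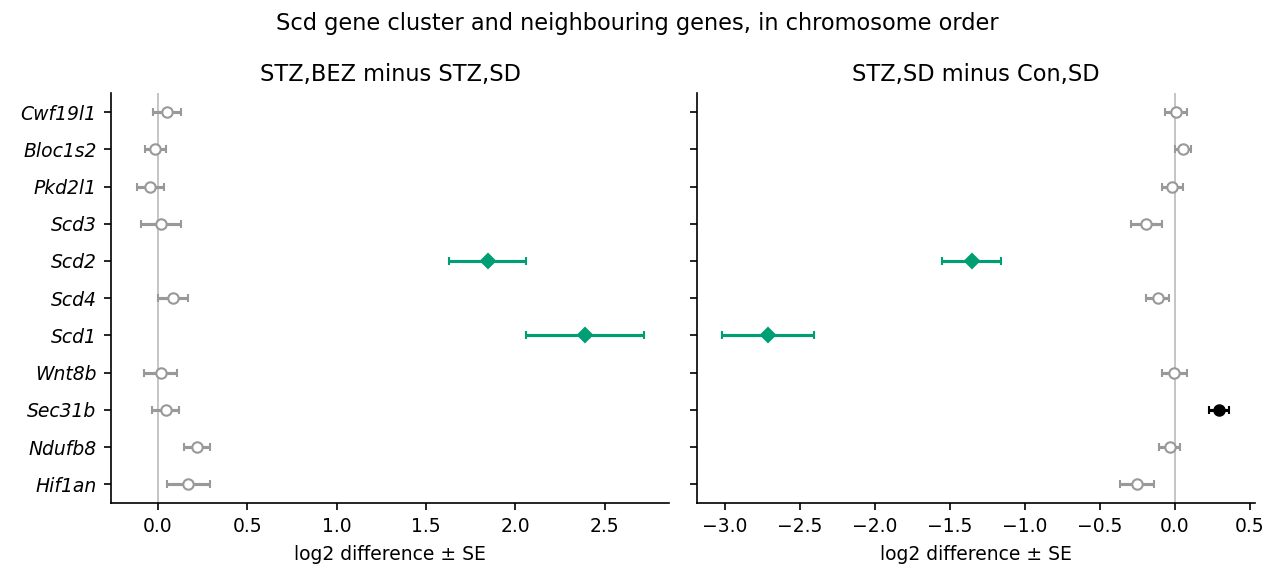
Log2 differences ± SE of the genes of the Scd cluster and its neighbours, from top to bottom in chromosome order, for STZ,BEZ minus STZ,SD (left) and STZ,SD minus Con,SD (right). Green diamonds are Scd1 and Scd2, black circles are genes called by limma and open grey circles are genes not called. Scd1 and Scd2 stand away from 0 in both panels, while Scd3 and Scd4 next to them, both of low level, do not.

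The genes around the desaturase step were followed through lists of its pathway, with Scd1 and Scd2 left out of all counts. Comparing STZ,BEZ with STZ,SD, limma called 4 genes higher (0.0201% of all genes) and 0 lower (0% of all genes), with 1134 genes at an unadjusted p under 0.05 (707 higher, 427 lower). These 4 were Scd1, Scd2, Srebf1 and Lpcat3, and the calls of Scd1 and Scd2 follow from how they were selected. With so few genes called, 0 calls in a list tell little for that comparison. In STZ,SD against Con,SD, 13.9% of all genes were called higher and 11.9% lower. Between STZ,BEZ and Con,SD, 13.1% were called higher and 8.45% lower. Of the 123 measured genes in 9 lists of lipid metabolism and its regulators, 2 were called higher and 0 lower in STZ,BEZ against STZ,SD. In STZ,SD against Con,SD, 19 were called higher and 24 lower, and in STZ,BEZ against Con,SD 31 were called higher and 5 lower. Without Con,SD array 1 these counts were 21 higher and 27 lower for STZ,SD, and 37 higher and 8 lower for STZ,BEZ.

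The other desaturases did not pass limma's threshold in the comparisons with STZ,SD, a count that depended on the method and on Con,SD array 1. Of 8 measured, 0 were called in STZ,BEZ against STZ,SD, beside 0.0201% of all genes higher and 0% lower. In STZ,SD against Con,SD 0 were called, beside 13.9% of all genes higher and 11.9% lower. Significance analysis of microarrays (SAM), the method of the study, called 2 higher in STZ,BEZ against STZ,SD (Fads1 and Fads2), and in STZ,SD against Con,SD 1 higher (Degs1) and 2 lower (Fads1 and Fads2). Without Con,SD array 1, limma called Fads2 in STZ,BEZ against STZ,SD and Degs1 in STZ,SD against Con,SD. Their medians were 0.07 and -0.16 in these comparisons, against 0.00 and -0.01 for all genes. Fads2, the first desaturase in the synthesis of polyunsaturated fatty acids, had a difference of 0.61 ± 0.31 in STZ,BEZ against STZ,SD (limma, adjusted p = 0.903), and Fads1, the delta-5 desaturase, one of 0.51 ± 0.24 (limma, adjusted p = 0.87). In these 2 genes the lowest STZ,BEZ mouse was above the highest STZ,SD mouse, by 0.194 in Fads2 and 0.0621 in Fads1. Neither passed limma's threshold, and with few mice a group, values can lie apart in this way without a difference that passes. Both were highest of all on Con,SD array 1, at 10.52 for Fads2 and 10.01 for Fads1. Without that array both were called higher in STZ,BEZ against Con,SD, by 0.39 for Fads2 and 0.37 for Fads1, where the values over all arrays were 0.09 and 0.16. In STZ,BEZ against Con,SD, 13.1% of all genes were called higher and 8.45% lower. Degs1, a ceramide-forming desaturase, was the 1 gene of the list called there, with 0.22 ± 0.08 (limma, adjusted p = 0.0681). It fell short of the threshold without Con,SD array 3 (0.20) or 4 (0.17) and without STZ,BEZ array 1 (0.23), 2 (0.19) or 3 (0.21). Fads3, Fads6 and Degs2 were called in no comparison, although a second quantile normalization called Fads6 in STZ,SD against Con,SD.

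Desaturation takes its electrons from cytochrome b5 and its reductases. Of these 6 genes, 0 were called in STZ,BEZ against STZ,SD and 3 fell in STZ,SD against Con,SD, beside 11.9% of all genes. Cyb5b, the cytochrome b5 of the outer mitochondrial membrane, fell by 0.49 ± 0.07 in STZ,SD against Con,SD (limma, adjusted p = 0.000211) and differed by -0.40 ± 0.07 between STZ,BEZ and Con,SD (limma, adjusted p = 0.00165). Cyb5a, the form of the endoplasmic reticulum that serves the desaturases, fell by 0.53 ± 0.20 in STZ,SD against Con,SD (limma, adjusted p = 0.068), and this call was lost without STZ,SD array 2, 3, 4 or 5 (-0.53, -0.56, -0.48 and -0.48). Cyb5a was 11.45 on Con,SD array 1 and at most 10.39 on the other controls, and without that array it fell by 0.35 (limma, adjusted p = 0.0345). Cyb5r4 fell by 0.15 ± 0.06 (limma, adjusted p = 0.0996), a call lost in 12 of the 17 repeats that left out 1 array. The 6 genes had a median of 0.05 in STZ,BEZ against STZ,SD.

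Lipogenic genes, which make the saturated substrates, were mostly lower in STZ,SD than in Con,SD. Of 11 measured, 7 fell and 1 rose (beside 11.9% and 13.9% of all genes), with a median of -0.39 against -0.01 for all genes. Fasn, the fatty acid synthase, had values of 9.91, 9.82, 9.23, 8.76 and 8.65 in STZ,BEZ. It had 8.57, 7.55, 7.62, 8.17 and 7.73 in STZ,SD, and between 9.09 and 10.24 with a median of 9.57 in Con,SD. As in Scd1, all STZ,SD values of Fasn were below all others, and STZ,BEZ overlapped with Con,SD. Fasn fell by 1.67 ± 0.25 in STZ,SD against Con,SD (limma, adjusted p = 0.000248). Its difference of 1.35 ± 0.27 in STZ,BEZ against STZ,SD missed the threshold (limma, adjusted p = 0.298), and it passed with array weights (1.42) and under SAM. The other genes that fell in STZ,SD were Slc25a1, the mitochondrial citrate carrier, Thrsp and Mid1ip1, both regulators of lipogenesis, Acly, the ATP citrate lyase, Pgd, and Acaca, the cytosolic acetyl-CoA carboxylase, by 0.37 to 0.79. Acacb, the acetyl-CoA carboxylase at mitochondria, rose by 0.47 ± 0.09 (limma, adjusted p = 0.00106). None of the 11 was called in STZ,BEZ against STZ,SD (2 under SAM, Fasn and Acaca), with a median of 0.24 against 0.00 for all genes.

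**Figure D3:**
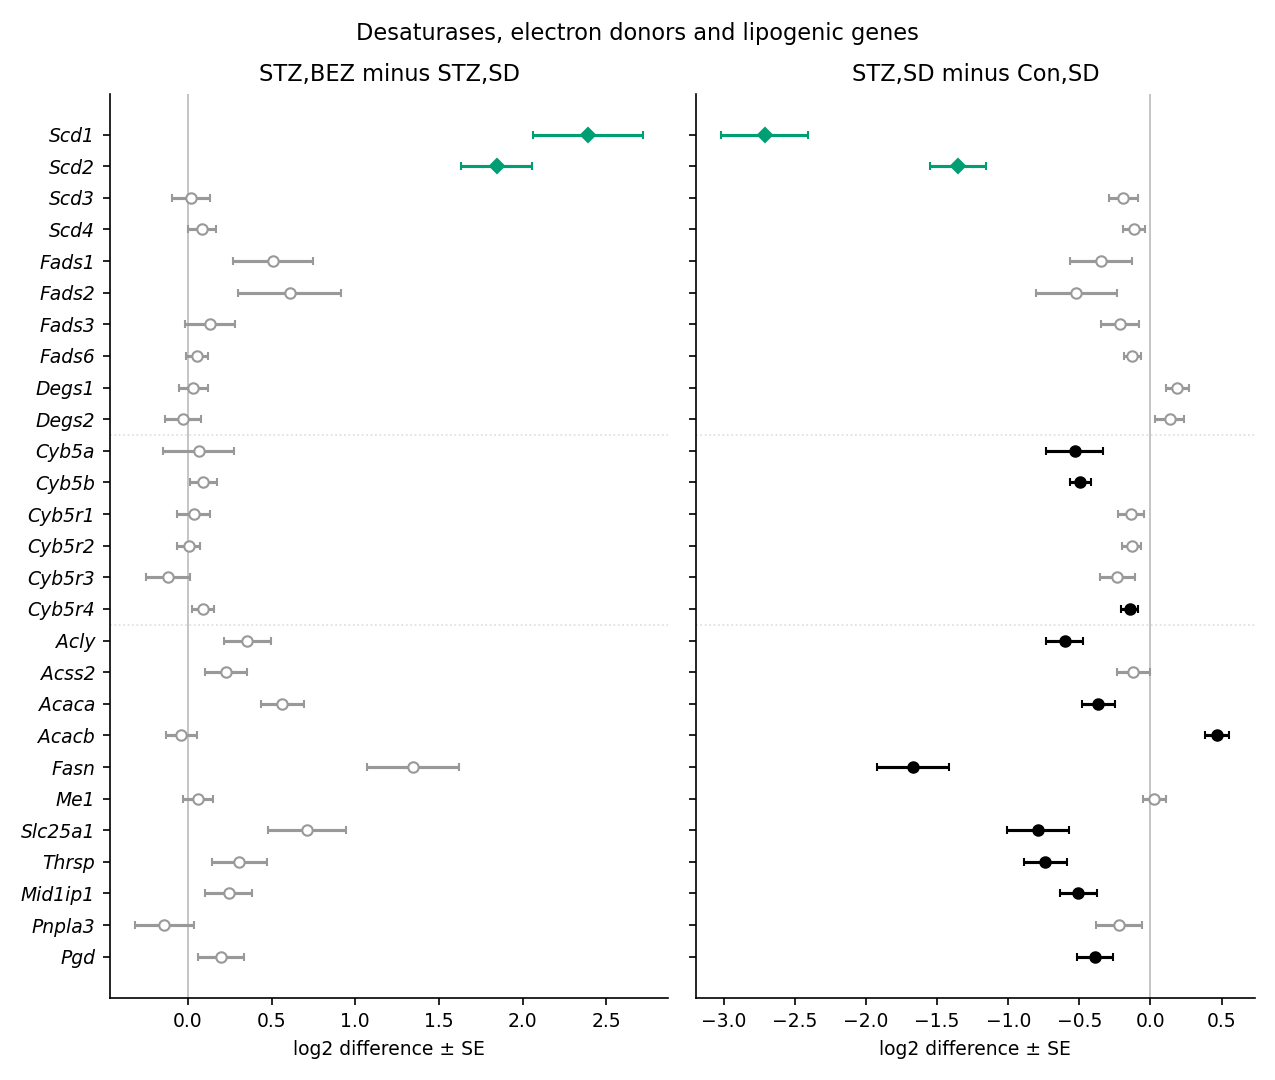
Log2 differences ± SE for the desaturases (top), the electron carriers (middle) and the lipogenic genes (bottom), for STZ,BEZ minus STZ,SD (left) and STZ,SD minus Con,SD (right), with separate horizontal axes. Green diamonds are Scd1 and Scd2, black circles are genes called by limma and open grey circles are genes not called. Of the other genes plotted, Fasn has the largest differences, and it is called in the right panel alone.

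Elongases and acyltransferases stand upstream and downstream of the desaturase. Of 12 genes of chain elongation, 4 fell in STZ,SD against Con,SD (beside 11.9% of all genes). In either comparison of STZ,BEZ 0 were called, where against Con,SD 13.1% of all genes were called higher and 8.45% lower. In STZ,BEZ against Con,SD, however, SAM called 5 lower and array weights gave 3 lower and 1 higher, and without Con,SD array 1 Elovl5 was called higher and Elovl2 lower. Without that array Elovl2 was also called lower in STZ,SD against Con,SD (-0.47). Elovl6 elongates palmitate to stearate and thus makes the substrate of oleate synthesis. Over all arrays it fell by 0.93 ± 0.20 in STZ,SD against Con,SD (limma, adjusted p = 0.00351). Its difference was 0.44 ± 0.22 in STZ,BEZ against STZ,SD (limma, adjusted p = 0.889). Of 24 acyltransferases and lipins that use the fatty acid products, 3 rose and 4 fell in STZ,SD against Con,SD. These shares are close to the 13.9% and 11.9% of all genes. Those that fell were Agpat2 (-1.14 ± 0.25), which makes phosphatidic acid, Dgat2 (-0.81 ± 0.19), which makes triglyceride, Lpcat3 (-0.28 ± 0.08) and Gpat4 (-0.19 ± 0.07). Those that rose were Lpcat4 (0.34 ± 0.09), Agpat3 (0.29 ± 0.09) and Porcn (0.20 ± 0.07). In STZ,BEZ against Con,SD 5 of the 24 rose and 1 fell, beside 13.1% and 8.45% of all genes. Agpat2 had the largest difference of the list in STZ,BEZ against STZ,SD too, at 0.72 ± 0.27, without passing the threshold (limma, adjusted p = 0.778).

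Lpcat3, which loads unsaturated fatty acids into phosphatidylcholine and is a known LXR target, was the acyltransferase called in STZ,BEZ against STZ,SD. Its values were 9.88, 10.10, 9.84, 10.01 and 10.01 in STZ,BEZ and 9.56, 9.12, 9.35, 9.37 and 9.29 in STZ,SD. In Con,SD they ran from 9.38 to 9.82 with a median of 9.64. The lowest STZ,BEZ mouse lay above the highest mouse of both other groups. Lpcat3 rose by 0.63 ± 0.09 in STZ,BEZ against STZ,SD (limma, adjusted p = 0.00457) and by 0.35 ± 0.08 in STZ,BEZ against Con,SD (limma, adjusted p = 0.00618).

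Srebf1, the gene of the lipogenic factors SREBP-1a and SREBP-1c, was the 1 called gene among 24 regulators in STZ,BEZ against STZ,SD. Its values were 9.97, 9.97, 9.73, 9.70 and 9.60 in STZ,BEZ. They were 8.51, 8.49, 8.28, 9.12 and 8.77 in STZ,SD, and 8.98, 9.22, 8.77, 8.71, 8.77, 9.08 and 8.90 in Con,SD. All STZ,BEZ mice were above all other mice, and STZ,SD overlapped with Con,SD, so that the group order differed from that of Scd1. Srebf1 rose by 1.16 ± 0.13 in STZ,BEZ against STZ,SD (limma, adjusted p = 0.000732) and by 0.88 ± 0.12 in STZ,BEZ against Con,SD (limma, adjusted p = 0.000206). Its difference between STZ,SD and Con,SD was -0.28 ± 0.12 (limma, adjusted p = 0.118). That value passed the threshold when array 4 of STZ,SD (-0.41) or array 4 of Con,SD (-0.32) was left out, without the dimmest genes and under SAM.

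In STZ,SD against Con,SD 6 of the 24 regulators rose and 3 fell, beside 13.9% and 11.9% of all genes. Sp1 and Sp3, which bind GC boxes, rose by 0.51 ± 0.07 and 0.50 ± 0.07, and Scap, which escorts the SREBPs to the Golgi, by 0.33 ± 0.07. Insig1, which holds Scap back, fell by 0.59 ± 0.17 (limma, adjusted p = 0.0209), with 0.52 ± 0.18 in STZ,BEZ against STZ,SD (limma, adjusted p = 0.778). Against Con,SD, 9 regulators rose and 0 fell in STZ,BEZ, beside 13.1% and 8.45% of all genes. Without Con,SD array 1 a call was lost there and others, all higher, were gained. Srebf2, the factor for cholesterol synthesis, was among the 9, with 0.28 ± 0.09 (limma, adjusted p = 0.0436).

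Mice that had more Srebf1 than the mean of their group also had more Scd1. The deviations of each mouse from its group mean did not enter the choice of the genes, and 13 relations were computed on them with permutation within groups. Over the 17 mice, Scd1 and Srebf1 had Pearson's r = 0.934 (permutation p = 1e-05, the smallest that these resamples can give, adjusted p = 0.00013 over the 13) and Spearman's rho = 0.902 (permutation p = 2e-05, adjusted p = 0.00026). Without the 2 mice farthest out in Srebf1, r was 0.926, and without the STZ,SD mice it was 0.914. In Con,SD the 3 highest mice in both genes were arrays 1, 2 and 6, and in STZ,BEZ the 2 highest in both were arrays 1 and 2. Within STZ,BEZ, a difference between bezafibrate strengths cannot be told apart from other variation between mice, here and in the relations below.

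Scd2 and Srebf1 had r = 0.791 (permutation p = 0.00104, adjusted p = 0.00676) and rho = 0.755 (permutation p = 0.00174, adjusted p = 0.0113), and r = 0.698 without the 2 farthest mice. Without the STZ,SD mice this r was 0.614 and did not pass (permutation, adjusted p = 0.136). Scd1 and Scd2 had r = 0.745 (permutation p = 0.00546, adjusted p = 0.0237) and rho = 0.632 (permutation p = 0.0127, adjusted p = 0.0331). Without the 2 mice farthest out in Scd2, r was 0.439, and without STZ,SD it was 0.457, which did not pass (permutation, adjusted p = 0.272). Within single groups, as a description, r was 0.814 in STZ,BEZ, 0.941 in STZ,SD and 0.188 in Con,SD. Con,SD array 1 was high in Scd1 (12.91) and near the low end in Scd2 (9.66), and Con,SD array 3 was the reverse, with the lowest Scd1 (12.19) and a high Scd2 (10.24).

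Fasn had r = 0.504 with Scd1 (permutation p = 0.0246, adjusted p = 0.064, 0.612 without the 2 farthest) and rho = 0.654 (adjusted p = 0.0227). With Scd2 it had r = 0.633 (permutation p = 0.00982, adjusted p = 0.0319, 0.633 without the 2 farthest) and rho = 0.652 (adjusted p = 0.0269). The r of Scd1 and Fasn missed the threshold in 9 of the 17 repeats that left out 1 mouse, and without the STZ,SD mice it was 0.939 (permutation, adjusted p = 0.00305). Lpcat3, the other gene called with Srebf1, had r = 0.16 with Scd1 and 0.065 with Scd2 (permutation, adjusted p = 0.703 and 0.83). Within single groups, as a description, Lpcat3 had r with Scd1 of -0.046 in STZ,BEZ, -0.026 in STZ,SD and 0.75 in Con,SD. For Srebf1 with Scd1 these r were 0.96, 0.989 and 0.89. The 2 called genes thus differed in how they varied with Scd1 in STZ,BEZ and STZ,SD, and less so in Con,SD. The difference between those 2 relations was not tested.

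**Figure D4:**
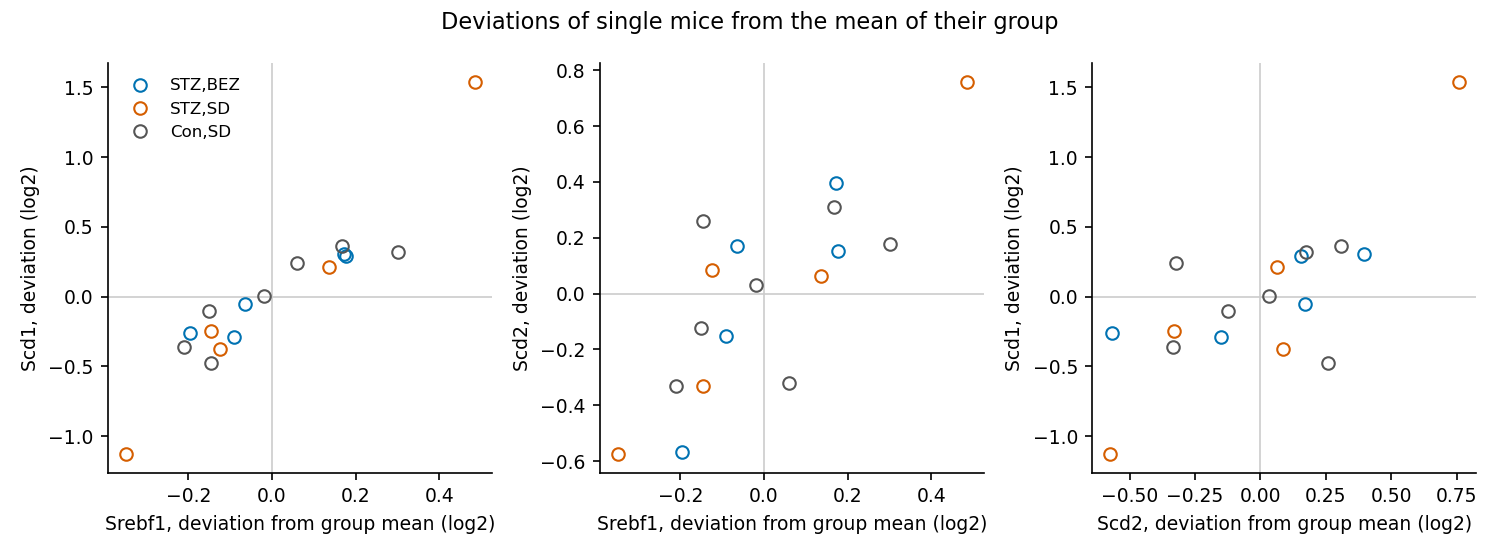
Deviation of each of the 17 mice from the mean of its group, in log2 units, for Scd1 against Srebf1 (left), Scd2 against Srebf1 (middle) and Scd1 against Scd2 (right), coloured by group. In the left panel the mice of all 3 groups lie along a line (r = 0.934), and in the right panel they lie less closely along one (r = 0.745, and 0.439 without the 2 farthest).

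Because Srebf1 and Lpcat3 were the genes called beside the desaturases, their promoters are shown, from 250 bases before to 50 bases after each annotated start, on the strand of the gene (RefSeq, GRCm38.p6). Srebf1 has 3 windows, at chr11:60222532-60222831, chr11:60220578-60220877 and chr11:60210422-60210721 on the minus strand, and Lpcat3 has 1, at chr6:124662854-124663153 on the plus strand. Capitals mark the NF-Y box CCAAT and the GC box GGGCGG on either strand, which 37.4% and 35.7% of 32851 such windows hold.

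Srebf1 window 1: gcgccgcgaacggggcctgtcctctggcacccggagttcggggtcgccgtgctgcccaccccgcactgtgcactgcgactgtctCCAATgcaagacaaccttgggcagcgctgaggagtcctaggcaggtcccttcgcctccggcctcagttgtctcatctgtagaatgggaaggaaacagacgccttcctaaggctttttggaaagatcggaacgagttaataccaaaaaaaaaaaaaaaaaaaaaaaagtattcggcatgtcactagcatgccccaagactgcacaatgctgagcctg

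Srebf1 window 2: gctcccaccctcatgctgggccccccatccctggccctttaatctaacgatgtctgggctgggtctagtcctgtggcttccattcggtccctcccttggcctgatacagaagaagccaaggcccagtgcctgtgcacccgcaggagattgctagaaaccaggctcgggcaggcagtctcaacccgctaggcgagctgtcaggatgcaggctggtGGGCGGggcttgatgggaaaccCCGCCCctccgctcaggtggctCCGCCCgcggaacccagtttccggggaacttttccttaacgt

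Srebf1 window 3: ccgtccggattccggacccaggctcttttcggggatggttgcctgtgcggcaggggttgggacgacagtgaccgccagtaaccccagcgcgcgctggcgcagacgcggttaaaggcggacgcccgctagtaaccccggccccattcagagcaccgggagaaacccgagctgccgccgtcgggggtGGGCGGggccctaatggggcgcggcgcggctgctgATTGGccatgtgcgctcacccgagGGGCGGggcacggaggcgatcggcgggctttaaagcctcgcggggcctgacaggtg

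Lpcat3 window: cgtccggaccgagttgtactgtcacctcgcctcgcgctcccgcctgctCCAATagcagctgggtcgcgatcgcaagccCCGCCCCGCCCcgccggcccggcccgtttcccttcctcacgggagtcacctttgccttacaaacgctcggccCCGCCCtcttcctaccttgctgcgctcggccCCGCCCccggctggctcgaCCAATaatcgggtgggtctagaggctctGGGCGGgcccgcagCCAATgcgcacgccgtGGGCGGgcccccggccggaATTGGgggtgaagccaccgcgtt

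Counted from the start, Srebf1 window 1 held 1 NF-Y box at -166 to -162, window 2 held 3 GC boxes, and window 3 held 2 GC boxes and 1 NF-Y box at -30 to -26. The Lpcat3 window held 4 NF-Y boxes and 6 GC boxes, of which the pair at -172 to -167 and -167 to -162 shares 1 base. The Fasn window held 3 NF-Y boxes, and the windows of Scd3 and Scd4 held none. The sterol regulatory element was searched as TCACNCCAC, the E-box as CACGTG and the TATA box as TATAAA, on both strands, and these were present in 1.24%, 7.15% and 13.6% of windows. None of these 3 was found in the windows of Srebf1, Fasn, Lpcat3, Scd3 or Scd4. A match is a run of letters and not a known binding site. Promoters of Scd1 and Scd2 were not analysed here.

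The LXR list held 13 measured genes that this receptor is known to induce. Of these, Srebf1 and Lpcat3 were called in STZ,BEZ against STZ,SD and the other 11 were not, with Abca1, the cholesterol exporter, next at 0.91 ± 0.17 (limma, adjusted p = 0.221). With array weights and under SAM 5 of the 13 were called higher there, which were these 3, Mylip and Abcg1. Against Con,SD, 6 rose and 0 fell in STZ,BEZ, beside 13.1% and 8.45% of all genes. Abca1 rose by 1.18 ± 0.16 (limma, adjusted p = 0.000158), Mylip, which marks the LDL receptor for degradation, by 0.56 ± 0.09 (limma, adjusted p = 0.000483) and Abcg1 by 0.48 ± 0.08 (limma, adjusted p = 0.000837). In STZ,SD against Con,SD, where Scd1 and Scd2 were low, 1 of the 13 rose and 1 fell, beside 13.9% and 11.9% of all genes. Lpcat3 fell by 0.28 ± 0.08 (limma, adjusted p = 0.0203) and Mlxipl rose by 0.20 ± 0.07 (limma, adjusted p = 0.0689). Srebf1, Abca1, Abcg1 and Mylip had values of -0.28, 0.27, 0.06 and 0.11 and were not called by limma over all arrays. Under SAM 2 of the 13 were called higher there (Abca1 and Mlxipl) and 3 lower, among them Lpcat3 and Srebf1. The call of Mlxipl was lost with only the groups compared, with the replicate block and in several repeats that left out 1 array. In STZ,BEZ, Scd1 lay near the control level while Abca1, Abcg1 and Mylip lay above it, as did Scd2 by 0.49 ± 0.20.

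Over all 17 mice the genes most like Scd1 in level were Plin2, a lipid droplet protein (r = 0.927), H2az2 (0.893), Scd2 (0.893), Csnk1g2 (0.881) and Fasn (0.880). These r describe mice of 3 groups with different means, and carry no test. By deviation from the group mean, the 5 most like Scd1 were Srebf1 (0.934), first among 19937 genes, Tmeff2 (0.879), Cd209d (0.834), Ubtd2 (0.829) and Ssx2ip (0.827), with Plin2 sixth (0.826) and Scd2 at place 61. The genes most like Scd2 in level were Scd1 (0.893), Hr (0.874), Atic (0.868), Rarb (0.848) and Naxe (0.839). By deviation they were Cbr2 (0.903), Cdk19 (0.889), Pld5 (0.888), Pde6d (0.870) and Cand2 (0.869), with Srebf1 at place 94 and Scd1 at place 245. Plin2 fell by 0.70 ± 0.12 in STZ,SD against Con,SD (limma, adjusted p = 0.000539), with 0.47 ± 0.13 in STZ,BEZ against STZ,SD (limma, adjusted p = 0.778).

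Other cells that express Scd1 or Scd2 could be present in a muscle sample, so markers of such cells were measured on the same arrays. The mean level of 10 adipocyte markers ran from 7.71 to 8.62 in STZ,BEZ, 7.41 to 8.18 in STZ,SD and 7.87 to 9.10 in Con,SD. The 3 groups overlapped in it. Of the 10, 0 were called in STZ,BEZ against STZ,SD (median 0.26, against 0.00 for all genes). In STZ,SD against Con,SD their median was -0.20, against -0.01 for all genes. Of them 1, Lep, which encodes leptin, fell there by 1.51 ± 0.32 (limma, adjusted p = 0.00289). Lep was also the 1 called in STZ,BEZ against Con,SD, with -1.41 ± 0.32 (limma, adjusted p = 0.00643). Within groups, the adipocyte level had r = 0.292 with Scd1 and 0.199 with Scd2 (permutation, adjusted p = 0.501 and 0.672). In single groups, as a description, its r with Scd1 was 0.136 in STZ,BEZ, 0.178 in STZ,SD and 0.737 in Con,SD. With Scd2 it was -0.304, 0.42 and 0.412 in the same order. The mean of 13 hepatocyte markers ran from 7.47 to 8.17 in STZ,BEZ, 7.90 to 8.87 in STZ,SD and 7.41 to 11.7 in Con,SD, with 8 lower in STZ,BEZ against Con,SD, 2 lower in STZ,SD against Con,SD (1 without Con,SD array 1) and 0 called in STZ,BEZ against STZ,SD. It had r = 0.105 with Scd1 and -0.147 with Scd2 (permutation, adjusted p = 0.687 and 0.672). The mean of 9 Schwann cell markers ran from 6.69 to 6.84 in STZ,BEZ, 6.74 to 6.82 in STZ,SD and 6.58 to 6.78 in Con,SD. Of the 9, 0 were called in STZ,BEZ against STZ,SD, 3 rose and 1 fell in STZ,SD against Con,SD, and 1 rose in STZ,BEZ against Con,SD. The mean had r = 0.17 with Scd1 and 0.167 with Scd2 (permutation, adjusted p = 0.672 for both). Beside these marker counts, 13.9% of all genes were called higher and 11.9% lower in STZ,SD against Con,SD. In STZ,BEZ against Con,SD the shares of all genes were 13.1% and 8.45%. Of 11 skin and sebaceous markers and 12 macrophage markers 0 were called in STZ,BEZ against STZ,SD. In that comparison 0.0201% of all genes were called higher and 0% lower, so that 0 calls in any marker list tell little. Of the skin and sebaceous markers, 1 was called higher in each comparison with Con,SD. Of the macrophage markers, 0 were called in STZ,SD against Con,SD, and 1 was called lower in STZ,BEZ against Con,SD. The part of these cells in the differences of Scd1 and Scd2 was not tested.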

How the data were processed

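The deposited values are log2 expression values that the authors made with RMA (background correction, quantile normalization, median polish), run in Expression Console 1.2 (Affymetrix) by the submitters' notes. Quantile normalization hides a shift shared by most genes. The labels give 65 mg/kg streptozotocin, mock-injected controls and 2 bezafibrate strengths, and the study's methods text differs in these points. Of 35556 probe sets, 21789 had 1 gene symbol, and the one with the highest mean per gene left 19938 genes. Probe sets with several symbols or none were not used. Scan dates were not used here, so no batch was tested. Replicates are separate mice per the labels.

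One fit of all 17 arrays (limma 3.58.1, R 4.3.3, lmFit and eBayes) gave 3 comparisons, called at a Benjamini-Hochberg adjusted p under 0.1. Relations within groups used 100000 resamples within groups, two-sided, and Benjamini-Hochberg over 13 relations (Python 3.11.15, SciPy 1.17.1). Members and lists were chosen with earlier results of these data known. Of 213 listed genes 196 were measured. Named genes are Scd1, Scd2, the other desaturases, Srebf1, Fasn and Lpcat3, up to 4 per list and comparison with the smallest adjusted p, the 5 most alike, and neighbours in rank. Outside this rule, and named after their values were seen, are the chromosomal neighbours, Pgd, Srebf2 and Lep. Same-numbered mice did not deviate together (15 pairs, r between -0.239 and 0.083), so the numbers were not taken as pairs. The scripts were tested on simulated data, where the share of unchanged genes among the calls of limma and of SAM was somewhat above the nominal one. Alternatives were median centring, a second quantile normalization, the mean of probe sets, array weights, only the groups compared, the replicate block, leaving out the 30% dimmest genes, leaving out each array, leaving out STZ,SD, and SAM, the study's method, at a false discovery rate of 10% with 100 permutations.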

Additional observations from a re-analysis of the deposited data

Results flagged for a closer look

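In 51 groups of values examined for a mouse far from the others of its group, 4 stood out, and chance alone gives about 1 in 20. None of them was in Scd1, Scd2 or the hepatocyte markers. Fads1 was 10.01 on Con,SD array 1, where the nearest control had 8.73, and Fads2 was 10.52 on the same array, where the nearest control had 8.69. The mean of the skin and sebaceous markers was also highest there, at 6.14 against 5.92 for the nearest control. In STZ,BEZ, Fads1 was 9.26 on array 2, and the nearest mouse had 8.89.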

How the results depend on the processing

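Scd1 and Scd2 kept the sign of each difference under all scalings and with any 1 array left out. For STZ,BEZ against STZ,SD, with any 1 array left out, Scd1 ran from 2.11 to 2.77 and Scd2 from 1.70 to 2.03. The count of genes called in that comparison was 4, and became 11 with array weights, 8 with only the groups compared and 31 under SAM. It was 6 without Con,SD replicate 1 or STZ,BEZ replicate 5. The search grid of the SAM implementation was refined after a first version had skipped its tail and returned 0 calls. The listed lipid genes called there numbered 2, against 6 with array weights, 14 under SAM, and 2 to 4 with 1 array left out (4 without STZ,BEZ replicate 5). Their totals in the other comparisons stayed within 1.5 times, but the 5 called lower in STZ,BEZ against Con,SD became 15 under SAM, 13 with array weights, 8 with the second quantile normalization or the replicate block, and 3 (without STZ,BEZ replicate 5) to 9 (without Con,SD replicate 4) with 1 array left out. With the replicate block, Scd1 differed by 2.39 between STZ,BEZ and STZ,SD, by -2.64 between STZ,SD and Con,SD, and the calls in STZ,BEZ against STZ,SD numbered 5. Without the STZ,SD mice, r was 0.457 for Scd1 with Scd2 and 0.614 for Scd2 with Srebf1, both no longer past the threshold. Weak relations changed sign. Scd2 with Lpcat3 had r = -0.134 without STZ,SD and -0.0743 (without Con,SD replicate 4) to 0.197 with 1 array left out, and Scd2 with the hepatocyte level had -0.348 to 0.0922 (without Con,SD replicate 1). The causes were not tested. With 5 to 7 arrays a group, small differences could be missed.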

Other observations

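Dbi, the acyl-CoA binding protein, fell by 0.67 ± 0.07 in STZ,SD against Con,SD (limma, adjusted p = 5.2e-06) and differed by -0.47 ± 0.07 between STZ,BEZ and Con,SD (limma, adjusted p = 0.000197). Slc27a1, a fatty acid transporter, rose by 1.11 ± 0.18 in STZ,SD (limma, adjusted p = 0.00038) and by 1.16 ± 0.18 in STZ,BEZ (limma, adjusted p = 0.000467), each against Con,SD. Neither was called in STZ,BEZ against STZ,SD, where Scd1 and Scd2 had their differences of 2.39 and 1.84. Of 8 measured genes of acyl-CoA synthesis and transport, 1 rose and 1 fell in each of the comparisons with Con,SD, a share close to that of all genes called (25.8% for STZ,SD and 21.6% for STZ,BEZ). Without Con,SD array 1, 3 fell in STZ,SD.

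Of 21 measured PPAR targets, a class of genes that fibrates induce in mouse liver, 0 were called in STZ,BEZ against STZ,SD (3 higher under SAM, Cyp4a10, Cyp4a14 and Ehhadh, and the first 2 of these without STZ,BEZ array 5), 8 rose and 2 fell in STZ,SD against Con,SD, and 10 rose and 0 fell in STZ,BEZ against Con,SD. Of all genes, 13.9% were called higher and 11.9% lower in STZ,SD against Con,SD, and 13.1% and 8.45% in STZ,BEZ against Con,SD. Cyp4a14 rose by 2.02 ± 0.37 in STZ,BEZ against Con,SD (limma, adjusted p = 0.00167), with 0.11 ± 0.37 in STZ,SD against Con,SD (limma, adjusted p = 0.868). Pdk4, which restrains glucose oxidation, rose by 1.01 ± 0.15 in STZ,SD against Con,SD (limma, adjusted p = 0.000263) and by 0.65 ± 0.15 in STZ,BEZ against Con,SD (limma, adjusted p = 0.00916). Acot2, a mitochondrial acyl-CoA thioesterase, rose by 1.01 ± 0.22 in STZ,SD and 1.17 ± 0.22 in STZ,BEZ, each against Con,SD (limma, adjusted p = 0.00351 and 0.00175).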
